A study of Schizosaccharomyces pombe with 9 samples.

Results

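The genes of the fission yeast glucose-sensing cAMP pathway were followed in log-phase cells lacking 1 or 3 of the *ecl* genes. They are 7 genes, taken by systematic ID from a count table of 6988 genes: *git3* (SPCC1753.02c), *gpa2* (SPAC23H3.13c), *cyr1* (SPBC19C7.03), *pka1* (SPBC106.10), *cgs1* (SPAC8C9.03), *rst2* (SPAC6F12.02) and *scr1* (SPBC1D7.02c). The 9 poly(A)+ RNA-seq libraries were 3 biological replicates each of *ecl123*Δ, *ecl3*Δ and WT cells grown at 30 °C in YES, a rich glucose medium. In the *ecl123*Δ strain *hygMX*, *natMX* and *kanMX* cassettes replaced *ecl1*, *ecl2* and *ecl3*, and the *ecl3*Δ strain carried the *kanMX* replacement alone. Each genotype was 1 haploid strain of mating type h−. The strains shared the auxotrophic alleles *leu1-32*, *ura4-D18* and *his3-D1*. Either of the *ade6* alleles *ade6-m216* and *ade6-m210* was present, the first of them in the WT, and which one each mutant carried is not given in the sources used here. The *ecl* genes encode small proteins known for prolonging chronological lifespan when overexpressed, and no growth condition other than rich medium was sampled here.

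In fission yeast, glucose outside the cell acts through the receptor Git3 and the G protein alpha subunit Gpa2 to turn on the adenylyl cyclase Cyr1. The cAMP made by Cyr1 binds Cgs1, the regulatory subunit of protein kinase A (PKA), and frees the catalytic subunit Pka1. Active Pka1 holds back the zinc finger activator Rst2, which otherwise turns on *ste11*, the master gene of sexual differentiation, and *fbp1*, the gene of the gluconeogenic enzyme fructose-1,6-bisphosphatase, while the zinc finger repressor Scr1 keeps other genes off in glucose.

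Libraries held 23254907 to 34871124 counted reads, and all 7 pathway genes passed the filter on low counts. The reads of *ecl3* were 0, 0 and 1 in *ecl123*Δ and 0, 0 and 0 in *ecl3*Δ, against 23, 15 and 42 in the WT. The other deleted genes did not have fewer reads in *ecl123*Δ: those of *ecl1* were 2840, 2640 and 3557 in *ecl123*Δ, against 468, 393 and 489 in the WT, and those of *ecl2* were 2242, 1752 and 2358 in *ecl123*Δ, against 1580, 1227 and 1830 in the WT. The cassettes replaced the ORFs, and in the RefSeq annotation the *ecl1* and *ecl2* mRNAs extend past them, so these gene-level reads do not check the *ecl1* and *ecl2* deletions. The mean squared difference per gene between replicates, where 1 is sampling noise, was 242 and 213 for *ecl123*Δ replicate 3 against replicates 1 and 2 of that strain, and 7.63 to 85.5 for the other pairs. The highest of these others, 85.5, was between *ecl3*Δ replicates 1 and 2. None of the 7 M-cell (h−) marker genes was at 0, and their summed normalized read count was 3472 to 3914 in *ecl123*Δ, 4864 to 8244 in *ecl3*Δ and 7153 to 7668 in the WT. The 4 P-cell markers were not at 0 either, with sums of 12361 to 15623 in *ecl123*Δ, 14662 to 23879 in *ecl3*Δ and 20910.0 to 21979 in the WT, nearly all of it from *sxa1*. As markers of both cell types had reads, these sums cannot check the h− label.

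No pathway gene passed the edgeR test in any of the 3 comparisons, and the gene farthest from the WT in *ecl123*Δ was *cgs1*. In *ecl123*Δ, *cgs1* stood at 0.431 of the WT level and *gpa2* at 1.48 times the WT level, and for these 2 genes every *ecl123*Δ library lay beyond every WT library. The other 5 genes overlapped between these strains. The test was edgeR's quasi-likelihood test, fitted once to the 9 libraries together, and calls needed an adjusted p (Benjamini-Hochberg, over 6257 genes) no higher than 0.05, a 2-fold or larger change and, in the strain with more reads, a mean normalized count of 100 or more. In *ecl123*Δ against WT, 0 of the 7 genes were called beside 0.735% of all genes tested, and 0 passed the adjusted p alone beside 1.18%. At an unadjusted p under 0.05 in the edgeR test there were 3 pathway genes (*cgs1*, *gpa2* and *git3*) beside 19.9% of all genes, and the strains did not overlap for 2 of 7 beside 26.0%. DESeq2 on the same counts called 1 of the 7, *cgs1*, beside 1.97% of the genes it tested, and gave 2 of the 7, *cgs1* and *gpa2*, an adjusted p of at most 0.05, beside 8.73%.

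**Figure D1:**
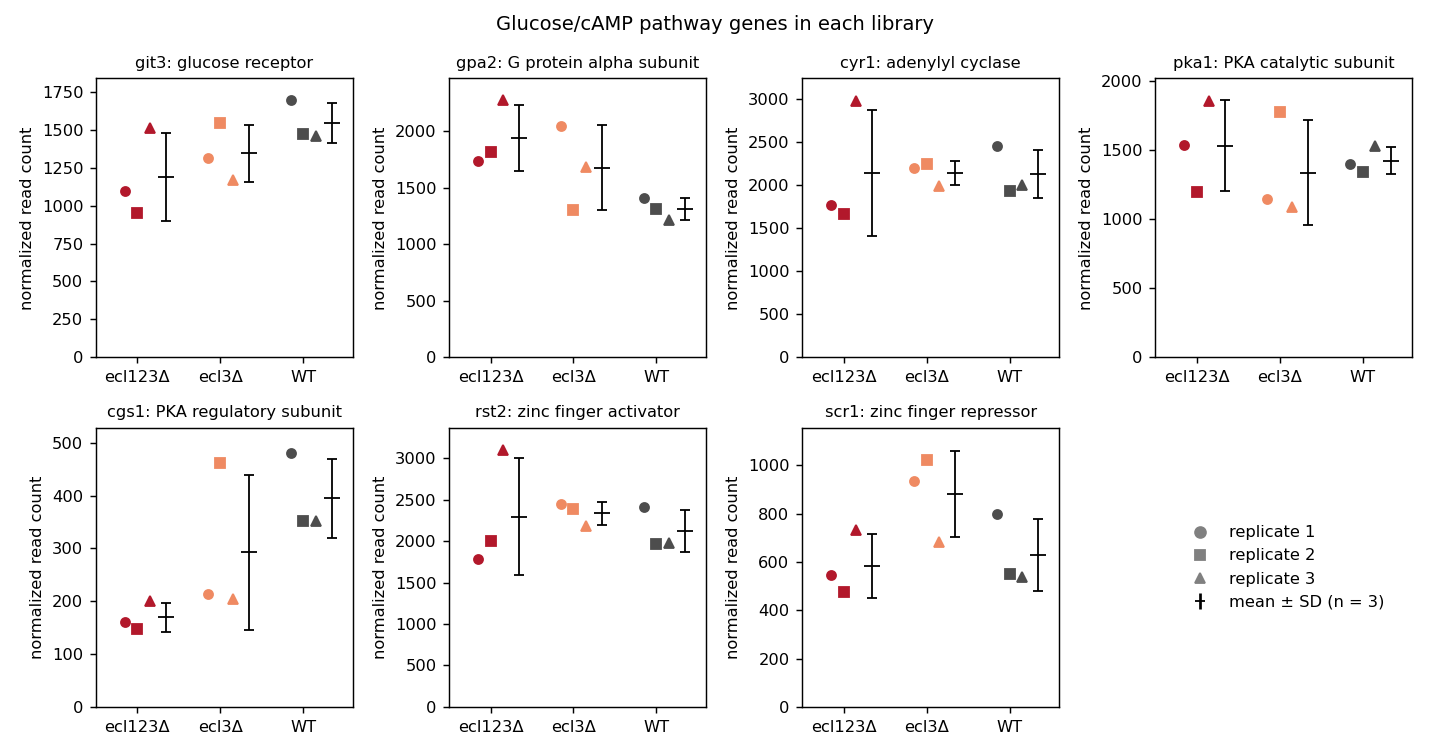
Normalized read count (linear axis from 0) of each of the 7 pathway genes in the *ecl123*Δ, *ecl3*Δ and WT libraries; each symbol is 1 library, its shape gives the replicate number and the bar is the mean ± SD (n = 3). For *cgs1* every *ecl123*Δ library lay below the WT ones and for *gpa2* above them, and *ecl3*Δ replicate 2 lay among the WT libraries for both.

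At the top of the pathway, the receptor and G protein genes had log2 fold changes of opposite sign. For *git3*, the glucose receptor gene, the normalized read counts were 1099.9, 949.6 and 1512 in *ecl123*Δ, 1317, 1546 and 1172 in *ecl3*Δ, and 1696, 1475 and 1463 in the WT. Replicates 1 and 2 of *ecl123*Δ were below every other library, but replicate 3 was within the WT range, so the strains overlapped. In *git3* the log2 fold change was -0.38 in *ecl123*Δ against WT (SE 0.17, 95% interval -0.75 to -0.0033, edgeR adjusted p = 0.248) and -0.20 in *ecl3*Δ against WT (SE 0.17). With *ecl123*Δ replicate 3 and *ecl3*Δ replicate 2 both left out, it was -0.59 in *ecl123*Δ, with an edgeR adjusted p of 0.00507. That setting was added after the data were seen, and it drops the *ecl123*Δ library that lay within the WT range. Of 16 alternative settings, it was the only 1 in which *git3* passed the adjusted p in *ecl123*Δ against WT. Over the 16, the log2 fold change there was -0.59 to -0.24, with edgeR or DESeq2 adjusted p values of 0.00507 to 0.482.

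For *gpa2*, the gene of the alpha subunit that relays the glucose signal, the normalized read counts were 1735, 1813 and 2273 in *ecl123*Δ, 2045, 1298 and 1685 in *ecl3*Δ, and 1408, 1312 and 1216 in the WT. All 3 *ecl123*Δ libraries were above all 3 WT libraries, as were *ecl3*Δ replicates 1 and 3, and *ecl3*Δ replicate 2 was inside the WT range. The means were 1940.3 ± 290.4 in *ecl123*Δ, 1676 ± 373 in *ecl3*Δ and 1312 ± 96.1 in the WT (SD, n = 3 each). Against the WT, the log2 fold change of *gpa2* was 0.57 in *ecl123*Δ (SE 0.16, 95% interval 0.20 to 0.93, edgeR adjusted p = 0.105) and 0.35 in *ecl3*Δ (SE 0.16, adjusted p = 1.00). DESeq2 gave *gpa2* an adjusted p of 0.0226 in *ecl123*Δ, at a change under 2-fold. Over the 16 alternatives there, the log2 fold change was 0.43 to 0.64, with edgeR or DESeq2 adjusted p values of 0.0149 to 0.331. The adjusted p was past 0.05 in 4 of them. In *ecl3*Δ against WT, *gpa2* passed only with *ecl3*Δ replicate 2 and *ecl123*Δ replicate 3 both left out (edgeR adjusted p = 0.0201). Between the mutants the log2 fold change of *gpa2* in the main fit was 0.21 (SE 0.16, edgeR adjusted p = 0.717), with overlapping libraries.

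The gene of the adenylyl cyclase, *cyr1*, had the same mean in the 3 strains within its error. Its normalized read counts were 1775, 1661 and 2979 in *ecl123*Δ, 2202, 2249 and 1986 in *ecl3*Δ, and 2454, 1934 and 2005 in the WT. The *ecl123*Δ libraries held both the lowest and the highest of the 9 values, the highest being replicate 3. Its log2 fold change was 0.01 in *ecl123*Δ against WT (SE 0.20, 95% interval -0.44 to 0.45) and 0.01 in *ecl3*Δ against WT (SE 0.20, 95% interval -0.44 to 0.46). With 3 libraries a strain, differences within those intervals were compatible with the data.

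The 2 PKA subunit genes stood at different distances from the WT. For *pka1*, which encodes the catalytic subunit, the normalized read counts were 1539, 1198 and 1856 in *ecl123*Δ, 1146, 1779 and 1089 in *ecl3*Δ, and 1399, 1344 and 1531 in the WT. The mutant libraries lay on both sides of the WT ones, and *ecl3*Δ replicate 2 was above the other *ecl3*Δ libraries. Log2 fold changes of *pka1* were 0.10 in *ecl123*Δ against WT (SE 0.20, 95% interval -0.34 to 0.55) and -0.09 in *ecl3*Δ against WT (SE 0.20, 95% interval -0.54 to 0.36).

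For *cgs1*, the gene of the inhibitory regulatory subunit, the normalized read counts were 161, 148 and 201 in *ecl123*Δ, 213, 461 and 203 in *ecl3*Δ, and 481, 352 and 351 in the WT. The 3 *ecl123*Δ libraries were the lowest of the 9, *ecl3*Δ replicates 1 and 3 were just above them, and *ecl3*Δ replicate 2 was within the WT range. The means were 169.8 ± 27.8 in *ecl123*Δ, 293 ± 146 in *ecl3*Δ and 395 ± 74.5 in the WT (SD, n = 3 each). In bulk RNA, fewer cells with the transcript and less transcript per cell cannot be told apart.

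In *ecl123*Δ against WT the log2 fold change of *cgs1* was -1.22 (SE 0.31, 95% interval -1.91 to -0.52, edgeR adjusted p = 0.0873), which missed the threshold. Over 16 alternative settings it was -1.36 to -1.05, with edgeR or DESeq2 adjusted p values of 0.00181 to 0.248. The adjusted p was past 0.05 in 4 of them: 0.00382 with DESeq2, 0.0164 with edgeR on the *ecl123*Δ and WT libraries alone, 0.00724 with edgeR without *ecl3*Δ replicate 2, and 0.00181 with edgeR without that library and *ecl123*Δ replicate 3. In *ecl3*Δ against WT the log2 fold change of *cgs1* was -0.43 (SE 0.31, 95% interval -1.12 to 0.25, edgeR adjusted p = 1.00). It was -0.92 without *ecl3*Δ replicate 2, with an edgeR adjusted p of 0.103, and -0.92 without both libraries, with an edgeR adjusted p of 0.0216. Between the mutants it was -0.78 (SE 0.31, 95% interval -1.48 to -0.08, edgeR adjusted p = 0.417), and the strains did not overlap, as for 11.6% of all genes. Without *ecl3*Δ replicate 2 it was -0.29 between the mutants (edgeR adjusted p = 0.999), and without both libraries it was -0.44 (edgeR adjusted p = 0.305).

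**Figure D2:**
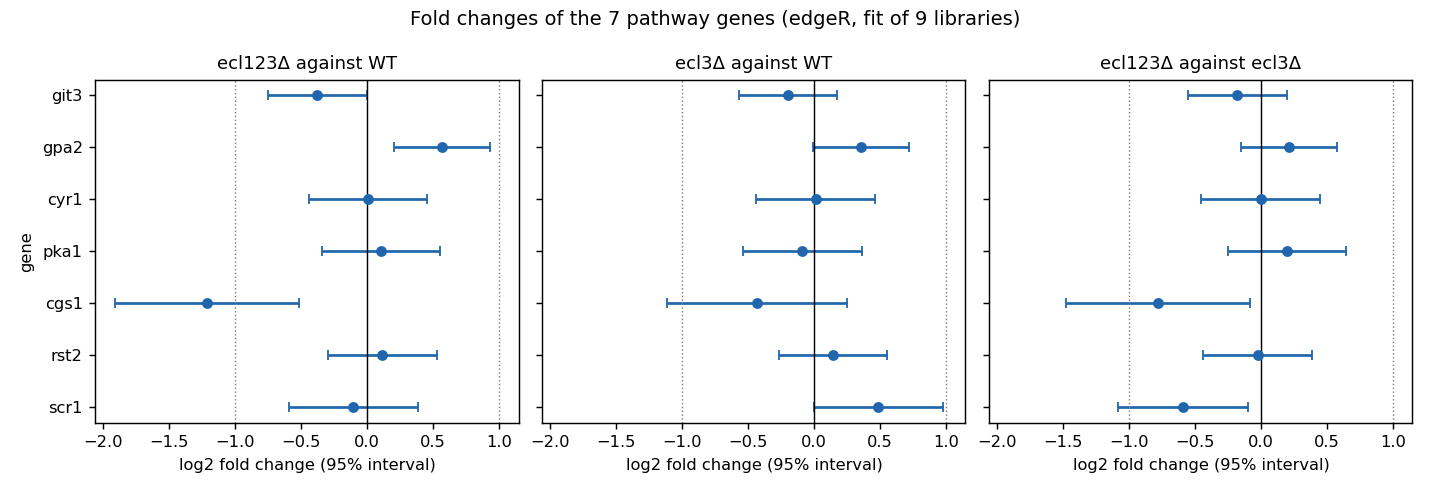
Log2 fold changes (points, edgeR) with 95% intervals (bars) of the 7 pathway genes for each mutant against the WT and for *ecl123*Δ against *ecl3*Δ; dotted lines mark a 2-fold change. The interval for *cgs1* in *ecl123*Δ runs from -1.91 to -0.52, that for *gpa2* from 0.20 to 0.93, and those for *cyr1*, *pka1* and *rst2* include 0 in each panel.

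The ratio of *cgs1* to *pka1* reads within a library does not depend on how libraries are scaled. There were 9.55, 8.08 and 9.22 *pka1* reads for each *cgs1* read in *ecl123*Δ, 5.37, 3.85 and 5.34 in *ecl3*Δ, and 2.91, 3.81 and 4.35 in the WT. Every *ecl123*Δ library had more *pka1* reads per *cgs1* read than any *ecl3*Δ or WT library, and *ecl3*Δ replicate 2 was again inside the WT range. The log2 ratio of *cgs1* to *pka1* averaged -3.16 ± 0.13 in *ecl123*Δ, -2.26 ± 0.27 in *ecl3*Δ and -1.86 ± 0.30 in the WT (SD, n = 3 each). The difference from the WT was -1.29 in *ecl123*Δ, a ratio 0.408 times that of the WT, with a two-sided exact permutation p of 0.1, the smallest that 3 libraries against 3 can give. It was -0.40 in *ecl3*Δ, with an exact permutation p of 0.2. The difference between *ecl123*Δ and *ecl3*Δ was -0.89, with an exact permutation p of 0.1.

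Downstream of PKA, the activator gene overlapped between the strains, and 2 *ecl3*Δ libraries were the highest for the repressor gene. For *rst2*, the gene of the activator that Pka1 restrains, the normalized read counts were 1783, 1998 and 3099 in *ecl123*Δ, 2447, 2383 and 2185 in *ecl3*Δ, and 2412, 1966 and 1982 in the WT. The highest value was that of *ecl123*Δ replicate 3, and the 3 strains overlapped. Log2 fold changes of *rst2* were 0.11 in *ecl123*Δ against WT (SE 0.18, 95% interval -0.30 to 0.52) and 0.14 in *ecl3*Δ against WT (SE 0.18, 95% interval -0.27 to 0.55).

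For *scr1*, the gene of the glucose repressor, the normalized read counts were 544, 475 and 733 in *ecl123*Δ, 936, 1024 and 681 in *ecl3*Δ, and 799, 549 and 539.6 in the WT. Replicates 1 and 2 of *ecl3*Δ were the highest of the 9 libraries, while *ecl3*Δ replicate 3 overlapped with the other strains. For *scr1* the log2 fold change was -0.10 in *ecl123*Δ against WT (SE 0.22, edgeR adjusted p = 0.848), 0.49 in *ecl3*Δ against WT (SE 0.22, edgeR adjusted p = 1.00) and -0.59 in *ecl123*Δ against *ecl3*Δ (SE 0.22, edgeR adjusted p = 0.378).

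In the comparisons that involve *ecl3*Δ, none of the 7 genes was called with edgeR or DESeq2. In *ecl3*Δ against WT, 0 of 7 were called and 0 had an unadjusted p under 0.05, beside 0% and 1.61% of all genes in the edgeR test, and 0 of 7 did not overlap, beside 9.53%. DESeq2 also called 0% of the genes it tested there and none of the 7, and 0 of the 7 passed its adjusted p alone, beside 0.0300%. In *ecl123*Δ against *ecl3*Δ, 0 of 7 were called beside 0.0479% and 0 passed the edgeR adjusted p alone beside 0.0639%. There, 2 of the 7 (*cgs1* and *scr1*) had an unadjusted edgeR p under 0.05, beside 10.7%. The difference between these shares was not tested. DESeq2 called none of the 7 between the mutants, beside 0.672%, and 0 passed its adjusted p alone, beside 2.77%. The median log2 fold change of the 7 genes was 0.01 in each mutant against the WT and -0.03 between the mutants, and that of all genes was 0.00 in each comparison.

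Among the 9 known targets of the pathway, *ste11* passed the edgeR test in *ecl123*Δ against WT. For *ste11*, whose product starts mating and meiosis and which active PKA represses, the normalized read counts were 531, 496 and 526 in *ecl123*Δ, 976, 3118 and 993 in *ecl3*Δ, and 2537, 2060.4 and 1894 in the WT. The *ecl123*Δ libraries were the 3 lowest, and *ecl3*Δ replicate 2, the highest of all 9, differed from the other *ecl3*Δ libraries as it did for *cgs1*. The log2 fold change of *ste11* was -2.06 in *ecl123*Δ against WT (SE 0.40, edgeR adjusted p = 0.0455), and -2.15 to -1.93 over the 16 alternatives. The adjusted p was 0.000855 with DESeq2, 0.000355 with edgeR on the *ecl123*Δ and WT libraries alone and 0.000103 with edgeR without *ecl3*Δ replicate 2. The call was lost without WT replicate 1, 2 or 3 (edgeR adjusted p of 0.149, 0.178 and 0.180), without *ecl123*Δ replicate 1, 2 or 3 (edgeR adjusted p of 0.153, 0.0775 and 0.0591) and without *ecl3*Δ replicate 3 (edgeR adjusted p = 0.0708). In *ecl3*Δ against WT the log2 fold change was -0.35 (SE 0.38, edgeR adjusted p = 1.00), and without *ecl3*Δ replicate 2 it was -1.14, with an edgeR adjusted p of 0.0199. Between the mutants it was -1.71 (SE 0.40, edgeR adjusted p = 0.157), a difference that DESeq2 called with an adjusted p of 0.0192, and it was -0.93 without *ecl3*Δ replicate 2 (edgeR adjusted p = 0.0746). The summed M-cell markers moved with *ste11*, and so did the P-cell sum, nearly all of it *sxa1*. Without *sxa1*, the P-cell sum was 712 to 1009 in *ecl123*Δ, 879 to 979 in *ecl3*Δ and 765 to 914 in the WT. P-cell log2 fold changes in *ecl123*Δ against WT were -0.67 for *sxa1*, 0.50 for *map2*, 0.21 for *map3* and -0.06 for *map4*. In *ecl123*Δ against WT, 4 of the 7 M-cell markers were called lower, beside the 0.735% of all genes called in either direction. Of the 4 P-cell markers, 0 were called. The M-cell markers *mam3* and *sxa2* overlapped between these strains, with log2 fold changes of -0.23 and -0.04. The part of these markers in the result was not tested.

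For *fbp1*, the gluconeogenic gene that glucose represses through PKA, the normalized read counts were 213, 93.9 and 178 in *ecl123*Δ, 127, 478 and 167 in *ecl3*Δ, and 334, 359.7 and 412 in the WT. Every *ecl123*Δ library was below every WT library, where 26.0% of all genes did not overlap in either direction. Replicate 2 of *ecl3*Δ was again far above the other 2 libraries of its strain. The log2 fold change of *fbp1* was -1.18 in *ecl123*Δ against WT (SE 0.47, edgeR adjusted p = 0.198) and -0.52 in *ecl3*Δ against WT (SE 0.46, edgeR adjusted p = 1.00). Over the 16 alternatives, the edgeR or DESeq2 adjusted p of *fbp1* in *ecl123*Δ against WT was 0.0231 to 0.438, and 2 passed. These were edgeR without *ecl3*Δ replicate 2 (0.0376) and edgeR without that library and *ecl123*Δ replicate 3 (0.0231). DESeq2 on all 9 libraries gave 0.0688. In *ecl3*Δ against WT, the log2 fold change of *fbp1* was -1.33 without *ecl3*Δ replicate 2 (edgeR adjusted p = 0.117).

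**Figure D3:**
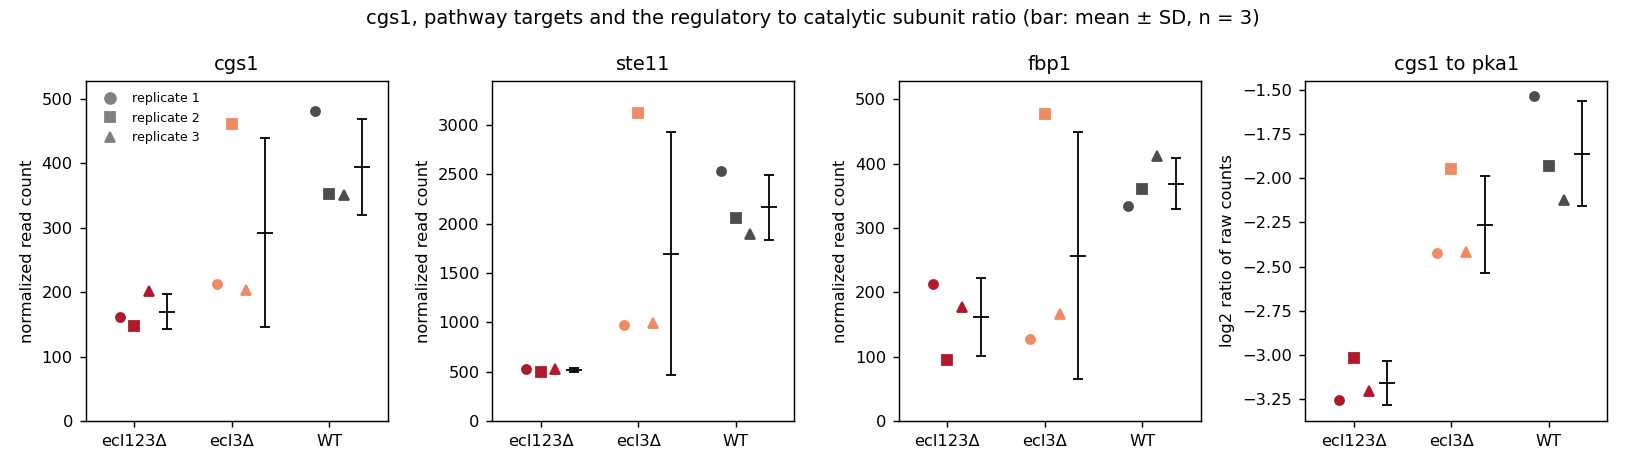
Normalized read count (linear axis from 0) of *cgs1*, *ste11* and *fbp1*, and the log2 ratio of raw *cgs1* to *pka1* counts, in the *ecl123*Δ, *ecl3*Δ and WT libraries; each symbol is 1 library, its shape gives the replicate number and the bar is the mean ± SD (n = 3). In the count panels *ecl3*Δ replicate 2 stood with or above the WT libraries (461 for *cgs1*, 3118 for *ste11*, 478 for *fbp1*), while replicates 1 and 3 of that strain stood below them.

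Of the 9 known targets in *ecl123*Δ against WT, 0 were higher and 1, *ste11*, was lower at an adjusted p of at most 0.05. This held with edgeR and with DESeq2. Of all genes tested, 1.18% passed with edgeR and 8.73% with DESeq2, in either direction. The median log2 fold change of the 9 was -0.07. The other targets were spread around the WT level. In the *ght* hexose transporter family, log2 fold changes in *ecl123*Δ against WT were -0.07 for *ght1*, 0.85 for *ght3*, -0.27 for *ght4*, 0.56 for *ght5* and -0.28 for *ght8*. Their edgeR adjusted p values were 0.250 to 0.931. For the invertase gene *inv1*, a target of Scr1 repression, it was 0.44 (SE 0.20, edgeR adjusted p = 0.253), and for the glycerol dehydrogenase gene *gld1* it was 0.23 (SE 0.26). In *ecl3*Δ against WT, 0 of the 9 passed in either direction with edgeR or DESeq2, with a median of 0.01. In *ecl123*Δ against *ecl3*Δ, 0 of the 9 passed with edgeR, with a median of -0.15. DESeq2 called 2 there, *ste11* lower and *ght3* higher, beside 0.672% of the genes it tested in either direction.

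The *ght3* gene, of the same transporter family, was uneven within *ecl123*Δ. Its normalized read counts were 166, 60.7 and 163 in *ecl123*Δ, 66.6, 46.2 and 44.6 in *ecl3*Δ, and 85.4, 80.5 and 52.8 in the WT. Replicates 1 and 3 of *ecl123*Δ were the highest of the 9 libraries, and replicate 2 was within the WT range. Between the mutants the log2 fold change of *ght3* was 1.30 (SE 0.38, edgeR adjusted p = 0.243, DESeq2 adjusted p = 0.0411). For *ght5*, the gene of the main high-affinity glucose transporter, the values were 3697, 8127 and 6946 in *ecl123*Δ, 5536, 6895 and 5567 in *ecl3*Δ, and 3944, 3626 and 5164 in the WT. All 3 *ecl3*Δ libraries exceeded the WT libraries, where 9.53% of all genes did not overlap in either direction. The log2 fold change of *ght5* there was 0.50 (SE 0.25, edgeR adjusted p = 1.00), and *ecl123*Δ overlapped with both strains.

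None of the 7 upstream and core partners passed the edgeR adjusted p in any comparison. With DESeq2, 1 of the 7 (*hsp90*) passed in *ecl123*Δ against WT, beside 8.73% of the genes it tested. The same gene passed between the mutants, beside 2.77%. The median log2 fold change of the 7 was -0.08 in *ecl123*Δ against WT, -0.06 in *ecl3*Δ against WT and 0.04 in *ecl123*Δ against *ecl3*Δ. The partner with the smallest p in *ecl123*Δ against WT was *hsp90*, the gene of the chaperone that acts with Git7 to keep adenylyl cyclase signaling working, with normalized read counts of 138973, 91892 and 172099 in *ecl123*Δ, 95043, 72258 and 75569 in *ecl3*Δ, and 84554, 74365 and 69827 in the WT. All *ecl123*Δ libraries were above the WT ones, and 26.0% of all genes did not overlap between these strains in either direction. The log2 fold change of *hsp90* was 0.82 (SE 0.21, edgeR adjusted p = 0.0867, DESeq2 adjusted p = 0.00317). Between the mutants it was 0.73 (SE 0.21, edgeR adjusted p = 0.225, DESeq2 adjusted p = 0.0239). For the G protein partners of Gpa2, the log2 fold change in *ecl123*Δ against WT was -0.19 for *git5* (beta subunit, SE 0.39) and 0.12 for *git11* (gamma subunit, SE 0.15). It was -0.23 for *git1* (needed for cyclase activation, SE 0.16), 0.18 for *git7* (SE 0.11), -0.21 for the cyclase-associated protein gene *cap1* (SE 0.14) and -0.08 for the cAMP phosphodiesterase gene *cgs2* (SE 0.13). Between the mutants, *git11* did not overlap, as for 11.6% of all genes. It was 293, 239 and 264 in *ecl123*Δ against 206, 206 and 178 in *ecl3*Δ (log2 fold change 0.43, SE 0.15, edgeR adjusted p = 0.322).

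The kinases and factors that act in parallel with PKA on its targets also gave 0 of 9 past the edgeR adjusted p in each comparison. Their median log2 fold change was -0.19 in *ecl123*Δ against WT. DESeq2 gave 1 there, *php3*, beside 8.73% of the genes it tested, and 0 in the other comparisons. The smallest p values among them in *ecl123*Δ against WT were those of *php3* and *php2*, subunit genes of the CCAAT-binding factor. The log2 fold change was -0.44 for *php3* (SE 0.13, edgeR adjusted p = 0.105, DESeq2 adjusted p = 0.0365) and -0.33 for *php2* (SE 0.16, edgeR adjusted p = 0.288). For *php3* the libraries did not overlap, as for 26.0% of all genes, with 1362, 1449 and 1251 in *ecl123*Δ, against 1711, 1869 and 1945 in the WT. Of the 3 Scr1 partners and corepressors, 0 passed with edgeR or DESeq2 in any comparison. The lowest was *ssp2*, the gene of the AMPK catalytic subunit, at -0.33 in *ecl123*Δ against WT (SE 0.14, edgeR adjusted p = 0.222), and the corepressor gene *tup11* was at -0.06 (SE 0.07).

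**Figure D4:**
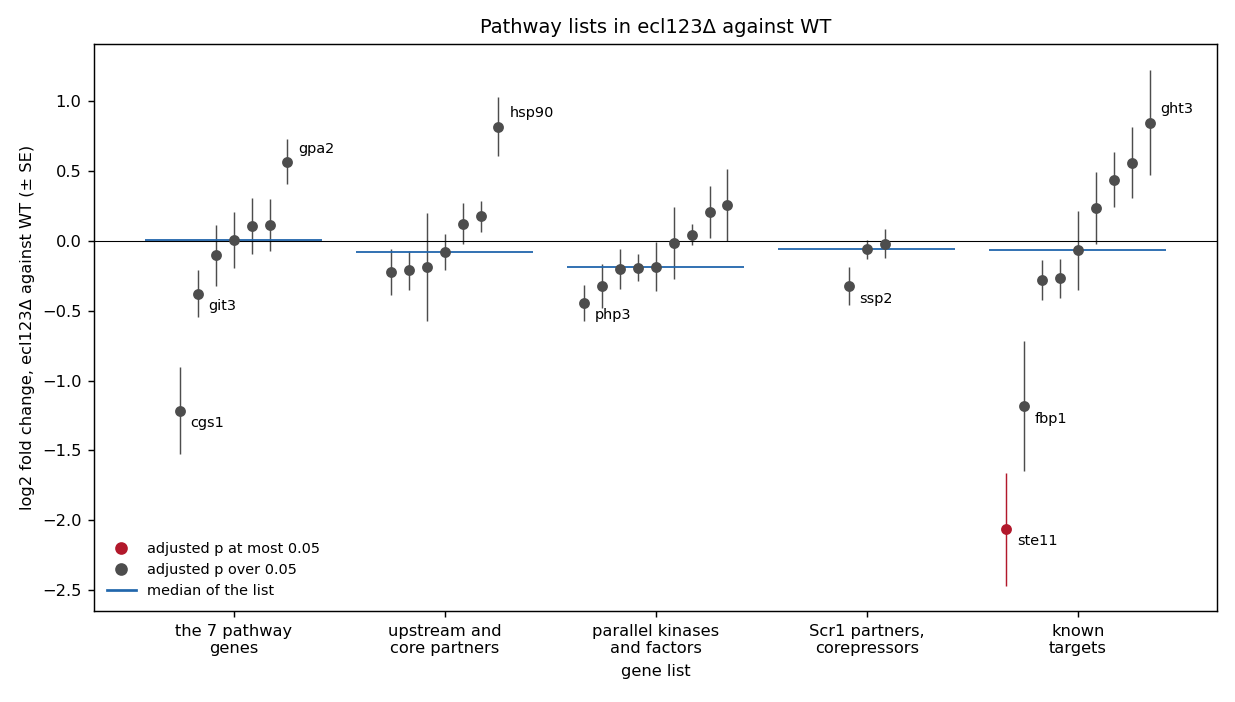
Log2 fold change (± SE, edgeR) in *ecl123*Δ against WT of the 7 pathway genes and of the 4 lists of partners, parallel factors, Scr1 partners and known targets; each point is 1 gene, the horizontal bars are list medians and red marks an edgeR adjusted p of at most 0.05. The 1 red point is *ste11* at -2.06, and the list medians lie between -0.19 and 0.01.

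Levels per length set *cgs1* at the low end of the pathway. As CPM per kb, the counts scaled to library size and divided by the RefSeq exon length in kilobases, the mean level in the WT was 25.5 for *pka1*, 19.9 for *rst2*, 16.6 for *gpa2*, 14.4 for *git3*, 13.8 for *cyr1*, 6.27 for *scr1* and 5.92 for *cgs1*. The libraries of *scr1* and *cgs1* overlapped in this order, as did those of *gpa2* and *git3* and those of *git3* and *cyr1*, while the other neighbors were apart. Among coding genes tested, the WT level of *cgs1* was at percentile 6.98 and that of *pka1* at percentile 36.3.

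In *ecl3*Δ the order was *pka1* at 23.9 CPM per kb, *rst2* at 21.9, *gpa2* at 21.2, *cyr1* at 13.9, *git3* at 12.6, *scr1* at 8.77 and *cgs1* at 4.39. In *ecl123*Δ it was *pka1* at 27.4 CPM per kb, *gpa2* at 24.5, *rst2* at 21.5, *cyr1* at 13.9, *git3* at 11.1, *scr1* at 5.82 and *cgs1* at 2.55. The libraries of *scr1* and *cgs1*, which overlapped in *ecl3*Δ and in the WT, were apart in *ecl123*Δ. The neighbors from *pka1* down to *git3* overlapped in *ecl123*Δ, and in *ecl3*Δ those of *gpa2* and *cyr1* and of *git3* and *scr1* were apart. Over the 9 libraries the highest level was 3.25 times the lowest for *cgs1*, against 1.70 to 2.15 times for the other 6 genes.

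The spread within a strain was not the same for these genes. The SD of log2 CPM of *cgs1* was 0.66 over the 3 *ecl3*Δ libraries, at percentile 97.9 of the coding genes, against 0.23 in *ecl123*Δ and 0.26 in the WT. For *pka1* and *gpa2* it was 0.39 and 0.33 in *ecl3*Δ, at percentiles 93.7 and 91.9. For *cyr1* and *rst2* the wide strain was *ecl123*Δ, at 0.46 and 0.42, against 0.10 and 0.09 in *ecl3*Δ.

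The coding genes most like each pathway gene were those with the smallest root mean square difference in log2 CPM over the 9 libraries, each gene centered on its own mean, among 5018 other coding genes. For *cgs1* they were *cpy1*, which encodes vacuolar carboxypeptidase Y, at 0.167, SPCC63.13, a DNAJ-type chaperone gene, at 0.216, and *krp1*, which encodes a kexin-type protease, at 0.218, where the median over all of these genes was 0.619. For *gpa2* they were *sda1* (0.0771), *rix1* (0.0851) and *mrd1* (0.0925), named genes of ribosome assembly, against a median of 0.325. For *scr1* the nearest was *wis1*, the gene of the MAP kinase kinase of the stress pathway, at 0.120 against a median of 0.393. For the remaining genes the nearest were *sec74* for *git3* (0.0895), *mga2* for *cyr1* (0.0434), SPAC32A11.02c for *pka1* (0.0841) and SPBC530.15c for *rst2* (0.0439). These values are descriptions over libraries that share strains and depth.

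In the RefSeq annotation, 6 of the 7 genes, all but *pka1*, are overlapped by 13 genes on the opposite strand and 0 on the same strand. Only 2 of the 13 have a row in the count table: a noncoding RNA gene at *git3* and *fsv1*, a SNARE gene, at *rst2*. The library kit marks strand, but the strand setting of the counting is not given in the sources used here, so reads from the opposite strand cannot be told apart from those of the genes if strand was not used. For *cgs1*, 3 noncoding RNA genes cover 33, 630 and 442 bases of its 2608, and for *gpa2* 1 covers 298 of 3187.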

How the data were processed

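Poly(A)+ RNA of 9 log-phase cultures was sequenced, 3 each of *ecl123*Δ, *ecl3*Δ and WT. Strains and replicate numbers came from the labels. The authors mapped the reads with HISAT2 2.1.0, used SAMtools and counted reads over exons with HTSeq 0.10.0 on ASM294v2. The deposited table holds whole-number counts per gene for 6988 genes, not normalized, and 0 of its sample columns went unused. The authors also deposited DESeq2 results for both mutants (means of normalized counts, log2 fold changes, standard errors and p-values), which were not used.

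Genes were filtered with filterByExpr of edgeR 4.0.16 (6257 kept, 5019 coding), scaled by TMM and tested with its quasi-likelihood test in R 4.3.3 with limma 3.58.1, strain being the term. Normalized read counts are counts divided by the effective library size and multiplied by its mean. SEs are the absolute log2 fold change divided by the square root of F. Log2 CPM used a prior count of 2, and the *cgs1* to *pka1* ratio used a pseudocount of 0.5. The functions were tested on simulated data.

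The pathway genes and gene lists were chosen with earlier results of these data known. All 7 pathway genes were named. Partners and targets were named freely, and of the other lists those past the adjusted p and the 2 with the smallest p. Depth was 23254907 to 34871124 counts per library, which limits precision at low counts, and intervals from 3 cultures of 1 strain cover the spread between those cultures. Gene names and exon lengths came from RefSeq ASM294v3, matched by systematic ID for 6836 genes. As that is another build, no coordinates or sequences are given, and the planned searches for promoter and protein motifs were not run. Alternatives were DESeq2 1.42.0, RLE factors, no scaling factors, no filter or minimum on counts, 1.5-fold in place of 2-fold, the 2 strains compared alone, the replicate number as a block and each library left out. Leaving out *ecl3*Δ replicate 2 and *ecl123*Δ replicate 3 together was added after the data were seen.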

Additional observations from a re-analysis of the deposited data

How the results depend on the processing

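Among pathway genes, the count called in *ecl123*Δ against WT was 0, and it was 1 (*cgs1*) with DESeq2, with edgeR on the 2 strains alone and with *ecl3*Δ replicate 2 and *ecl123*Δ replicate 3 both left out, and 0 to 1 with single libraries left out, the 1 being without *ecl3*Δ replicate 2. In the other comparisons it was 0 under every alternative run. Over 336 values of the 7 genes under alternatives, 11 passed the adjusted p (5 of them *cgs1* and 5 *gpa2*), 0 of these with a changed sign, and 9 of 21 gene and comparison pairs changed sign under some alternative without passing. Over all genes, 46 were called in *ecl123*Δ against WT, 126 with DESeq2, 118 with the 2 strains alone, 141 with both libraries left out and 2 to 127 with single libraries left out. In *ecl3*Δ against WT, 0 were called, 54 with both left out and 0 to 13 with single libraries left out. In *ecl123*Δ against *ecl3*Δ, 3 were called, 43 with DESeq2, 8 with both left out and 2 to 40 with single libraries left out. The cause of these shifts was not tested. The log2 ratio of *cgs1* to *pka1* differed by -1.42 to -1.13, -0.56 to -0.24 and -0.98 to -0.74 with single libraries left out, for *ecl123*Δ and *ecl3*Δ against the WT and between the mutants. Same-numbered libraries did not deviate together (correlations of -0.18 to 0.22). With 3 libraries a strain, this gave no sign of pairing by number, but it cannot show whether same-numbered cultures were handled together. With the replicate number as a block, 0 pathway genes were called in each comparison, and 57, 0 and 2 of all genes in that same order of comparisons. Another scaling moved the median of all genes by under 0.1 (log2). With 3 libraries a strain, the 95% intervals of *cyr1*, *pka1* and *rst2* against the WT reached about 0.4 to 0.6 (log2) at their farther ends. These intervals are not adjusted for the number of genes tested, and calls also needed a 2-fold change. Larger differences could therefore go uncalled. In *ecl123*Δ against WT, *gpa2* at 0.57 had an edgeR adjusted p of 0.105.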
